A study of Homo sapiens with 4 samples.

Results

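CTCFL, the gene that encodes BORIS, and CTCF, the gene of its paralog, are described here as places on the SMC1 contact map of neuroblastoma cells, through every anchor pair around them in the 2 deposited tables. CTCF is a widely expressed zinc finger protein that binds DNA and halts the extrusion of chromatin loops by cohesin, the ring complex of which SMC1 is a subunit, so that bound sites become loop ends. BORIS has a closely similar zinc finger domain and is normally restricted to male germ cells, and it is expressed in a range of tumours. A short hairpin acts on the messenger RNA, whereas the contacts below are those of the genes themselves.

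Members were all pairs with an anchor midpoint in 1 of 2 windows of the hg19 genome build. An anchor is a stretch of the genome that the authors listed as an interaction end, and a paired-end tag (PET) is 1 sequenced ligation of a pair of such ends. The CTCFL window covered 55700000-56400000 on chromosome 20, or 700 kb, and the CTCF window 67400000-67900000 on chromosome 16, or 500 kb. Of 720049 pairs listed in either table, 3120 were members, 2829 in the CTCFL window and 291 in the CTCF window. The gene intervals used were about 56064000-56100000 for CTCFL, which lies on the minus strand and so starts at its high coordinate, and 67596310-67673086 for CTCF, on the plus strand. The CTCFL interval is approximate. It spans 36 kb, against a gene length of 29688 bp in RefSeq, so its outermost anchor at the gene end may lie beside the gene.

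Both groups were Kelly cells, a neuroblastoma line, here a derivative that had become resistant to TAE684, an inhibitor of the kinase ALK, and was kept in 1 µM of it. The shBORIS group carried a short hairpin construct against BORIS and the shLUC group the control construct. In both, virus was applied for 24 h with polybrene at 8 µg/ml and puromycin selection lasted 48 h. Each group had 2 libraries, named shBORIS1 and shBORIS2 or shLUC1 and shLUC2; the labels do not say whether these are separate cultures or different hairpins, nor whether the resistant line is 1 clone. BORIS and CTCF expression were not analysed here, so neither the knockdown nor the identity of the cells was checked.

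ChIA-PET was used, which ligates the ends of DNA fragments precipitated with SMC1. The authors listed PET counts in 1 table per group, so each value below is that of a pool of 2 libraries, with no replicate error. Tests compare these pools, not the conditions, and intervals are exact 95% intervals for counting error. The shBORIS table held 449979 PETs, 163041 of them within a chromosome, against a total of 434975 PETs in that of shLUC, with 146140 of them within a chromosome. A scaled ratio is shBORIS over shLUC PETs after division by these intrachromosomal totals.

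RefSeq annotates 3 starts for CTCFL and 1 for CTCF. The sequences below are its GRCh38.p14 windows from 250 bases before to 50 bases after a start, shown because a contact anchor covers the CTCFL start and none covers that of CTCF. Capitals mark CCCTC, the repeat after which CTCF is named, and its reverse complement GAGGG, with overlapping matches counted.
CTCFL, outermost start, GRCh38.p14 chr20:57525603-57525902, minus strand: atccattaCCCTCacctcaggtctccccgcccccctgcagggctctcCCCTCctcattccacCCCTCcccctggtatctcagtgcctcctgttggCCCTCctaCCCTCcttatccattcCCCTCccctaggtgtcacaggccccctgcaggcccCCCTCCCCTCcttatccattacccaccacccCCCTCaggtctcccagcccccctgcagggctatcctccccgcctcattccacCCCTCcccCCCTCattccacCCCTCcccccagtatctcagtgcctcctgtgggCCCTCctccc
CTCF, GRCh38.p14 chr16:67562276-67562575, plus strand: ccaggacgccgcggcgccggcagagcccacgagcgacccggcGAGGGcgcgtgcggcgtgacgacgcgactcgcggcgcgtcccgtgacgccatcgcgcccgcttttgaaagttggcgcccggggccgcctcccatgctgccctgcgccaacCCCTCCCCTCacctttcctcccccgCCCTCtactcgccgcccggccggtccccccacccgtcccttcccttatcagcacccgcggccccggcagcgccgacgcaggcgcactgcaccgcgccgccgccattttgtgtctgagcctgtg
The outermost CTCFL start held 13 matches, and the other CTCFL starts held 8 and 6. The CTCF start held 4. At least 1 match occurred in 71.2% of 35116 RefSeq promoter windows of this length, and the median was 1. The outermost CTCFL start held 2 CpG dinucleotides and the other CTCFL starts 15 and 19, against 46 at the CTCF start and a median of 14. GC content was 66.3% at the outermost CTCFL start, 71.7% and 71% at the others and 75.3% at the CTCF start. The median was 58.7%, and the match counts were not adjusted for base composition. A match is a description of the letters and not a binding site, and none of these windows was placed inside an hg19 anchor.

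CTCFL lay in a stretch dense with SMC1 contacts, and CTCF did not. The CTCFL window held 58 of the 39507 anchors of the tables, more than 99.7% of the 3815 tiles of the same length that held an anchor, which had a median of 8. Each of these 58 anchors carried on average 27.1 intrachromosomal PET ends summed over the tables, against a tile median of 8.25. The CTCF window held 10 anchors, where tiles of its length had a median of 6, and 8.90 ends per anchor, where the tile median was 8. These tiles came from all chromosomes, and the chromosomes of the genes differed too. Chromosome 20 had 9927 intrachromosomal PETs in shBORIS and 8507 in shLUC, and chromosome 16 had 2161 and 1756. Whether the density around CTCFL exceeds that of its chromosome was not tested.

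CTCFL had 6 anchors on its gene interval, and CTCF had 0. From the gene end to the gene start, the CTCFL anchors lay at 56069486-56071237, 56073110-56075074, 56076320-56078090, 56084351-56085368, 56088483-56090490 and 56099332-56102713. The last is the widest, at 3382 bp, and covers the gene start. It is called the start anchor below. Around CTCF, the tables analysed here list no anchor between 67581625 and 67678284, a gap of 96.7 kb that takes in the whole gene and its start. Gaps between neighbouring anchors had a median of 26.2 kb, and 80.9% of them were shorter than this one. The anchors that flank CTCF lay 14.7 kb before its start and 5.20 kb after its end.

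**Figure D1:**
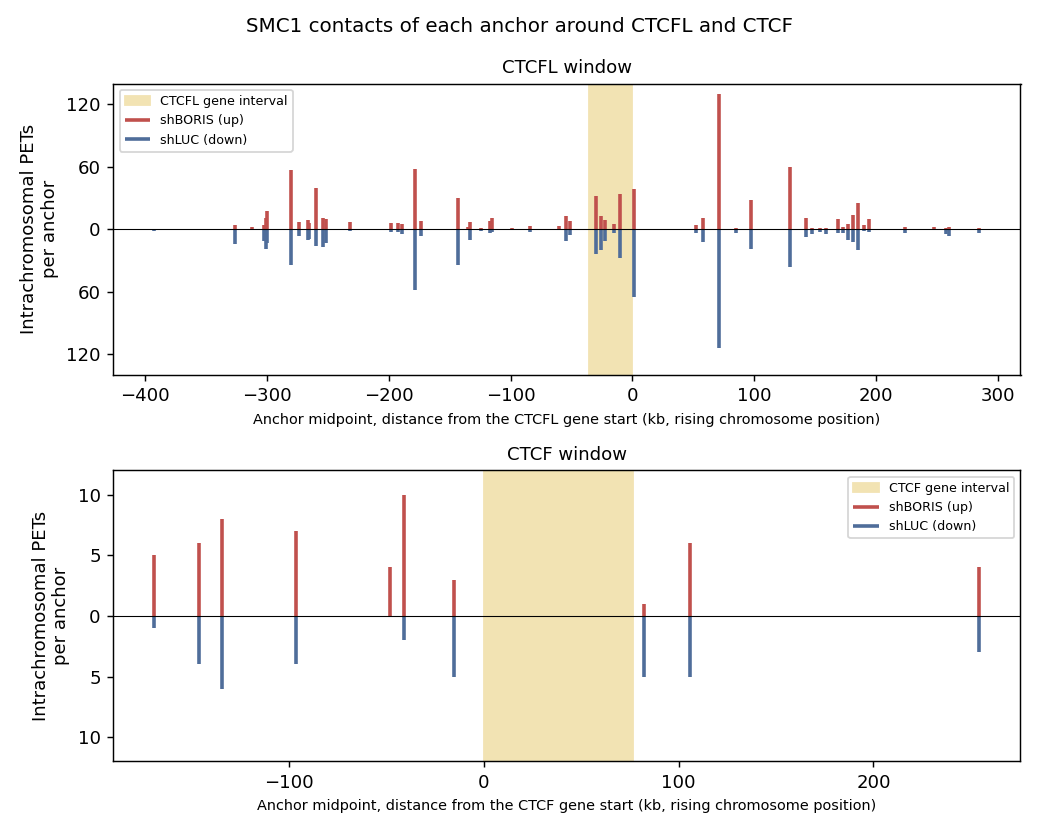
Intrachromosomal PETs of each anchor (vertical axis) against the distance of its midpoint from the gene start in kb, with shBORIS drawn upwards and shLUC downwards on 1 scale per panel. The tallest anchor of the CTCFL panel has 130 PETs in shBORIS and 114 in shLUC, while the CTCF panel reaches 10 in shBORIS and 6 in shLUC and its gene interval holds no anchor.

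Taken whole, neither window passed a test of a difference between the pools. The CTCFL window had 553 intrachromosomal PETs in shBORIS and 509 in shLUC (scaled ratio 0.974, interval 0.862 to 1.10, p = 0.667 by Fisher's exact test, adjusted p = 0.978 over 3106 tiles). The CTCF window had 32 in shBORIS and 24 in shLUC (ratio 1.20, interval 0.682 to 2.12, p = 0.593 by Fisher's exact test, adjusted p = 0.949 over 3974 tiles). Among tiles, 0.515% of those of the CTCFL length and 0.352% of those of the CTCF length passed an adjusted p of 0.05, and 10.7% and 9.59% had an unadjusted p under 0.05. The central 95% of tile ratios ran from 0.396 to 1.94 and from 0.384 to 2.02. These tiles had a median of 63 and 52 PETs over both pools, and the CTCFL window had more than 99.2% of its tiles. Sparse tiles vary more by counting error, so neither this range nor these shares are a like reference for the CTCFL window. The ratio of the CTCFL window divided by that of the CTCF window was 0.815 (interval 0.453 to 1.45, p = 0.495 by Fisher's exact test). For comparison, chromosome 20 as a whole stood at 1.05 (1.02 to 1.08) and chromosome 16 at 1.10 (1.04 to 1.18).

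PETs to other chromosomes numbered 1148 in shBORIS and 1239 in shLUC at the CTCFL window (ratio 0.933, 0.860 to 1.01, scaled to all such PETs). At the CTCF window they numbered 133 in shBORIS and 122 in shLUC (ratio 1.10, 0.852 to 1.41). Of the PET ends in the CTCFL window, 41.5% in shBORIS (Wilson interval 39.3 to 43.7) and 37.9% in shLUC (35.8 to 40.1) stayed on the chromosome, against 36.2% and 33.6% of all ends. In the CTCF window the shares were lower, at 28.9% in shBORIS (22.9 to 35.7) and 22.3% in shLUC (16.5 to 29.4). A PET with both ends inside a window counted as 2 ends that always agree, so these Wilson intervals are too narrow. The tables held 0 PETs between the windows in shBORIS and 0 in shLUC, where pairing in proportion to the interchromosomal ends would give 0.266 and 0.262. No pair of a CTCFL gene anchor with another chromosome exceeded 2 PETs in either pool.

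The anchors on the CTCFL gene had fewer intrachromosomal PETs in shBORIS. Together they had 118 PETs in shBORIS and 138 in shLUC (scaled ratio 0.766, interval 0.594 to 0.987, p = 0.0386 by Fisher's exact test, not adjusted). This ratio no longer passed with all PETs as the total (0.827), with pairs up to 2 Mb (0.810) or with pairs of at least 2 PETs (0.824). It still passed, unadjusted, with the PETs within chromosome 20 as the total (0.733) and with pairs of at least 20 kb (0.759). The start anchor carried the difference, with 39 PETs in shBORIS and 65 in shLUC (ratio 0.538, 0.352 to 0.812). Its p was 0.00219 before adjustment, and it did not pass over all 19623 anchors tested (Fisher's exact test, adjusted p = 0.459). Without the pairs of the start anchor, the gene anchors had 79 PETs in shBORIS and 73 in shLUC (ratio 0.970, interval 0.697 to 1.35, p = 0.871 by Fisher's exact test). The ratio of the start anchor divided by that of the other gene anchors was 0.554 (interval 0.322 to 0.950, p = 0.0298 by Fisher's exact test), a comparison chosen after the values were seen. PETs of the start anchor to other chromosomes numbered 64 in shBORIS and 85 in shLUC (ratio 0.758, 0.539 to 1.06). Its intrachromosomal ratio divided by that interchromosomal one was 0.710 (0.411 to 1.22, conditional exact test, p = 0.197). A difference in the coverage of this anchor and a difference in its contacts therefore cannot be told apart here.

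The other anchors of the gene had scaled ratios on both sides of 1. The anchor at 56088483-56090490 had 34 PETs in shBORIS and 28 in shLUC (ratio 1.09, 0.641 to 1.86). The anchor nearest the gene end, at 56069486-56071237, had 32 and 24 (ratio 1.20, 0.682 to 2.12). For 56073110-56075074 the counts were 13 in shBORIS and 20 in shLUC (ratio 0.583, 0.266 to 1.23), a ratio near that of the start anchor. For 56076320-56078090 they were 9 and 11 (ratio 0.733, 0.269 to 1.95). The narrowest, at 56084351-56085368, had 5 and 4 and was too sparse to be tested. All of these intervals included 1.

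**Figure D2:**
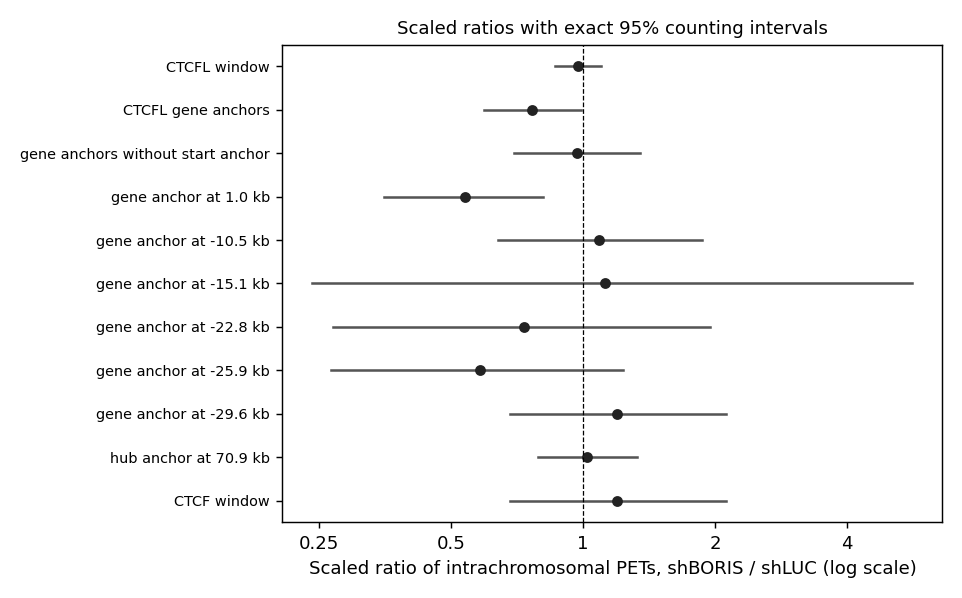
Scaled ratio of intrachromosomal PETs, shBORIS over shLUC, on a log axis, for the windows, the CTCFL gene anchors together and each alone, and the hub anchor described next, with exact 95% counting intervals as bars. Only the gene anchors together (0.766) and the start anchor, drawn at 1.0 kb (0.538), have an interval that leaves out 1.

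More contacts of the CTCFL gene went to 1 anchor than to any other. This anchor, at 56167830-56173942, lay 70.9 kb beyond the gene start and is called the hub here. The next partner by PETs, at 55955794-55957957 on the gene end side, had 13 PETs with the gene in shBORIS and 22 in shLUC. The hub took 54 of the gene's PETs in shBORIS, or 45.8%, and 56 in shLUC, or 40.6% (scaled ratio 0.864, 0.584 to 1.28). It was also the anchor of the window with the most PETs, 130 in shBORIS and 114 in shLUC (ratio 1.02, interval 0.789 to 1.33, adjusted p = 1 by Fisher's exact test over all anchors). The hub was also the widest anchor of the window, at 6113 bp against a median of 1264 bp. Its PETs to other chromosomes were the most of the window too, 178 in shBORIS and 169 in shLUC. Whether its width or coverage accounts for its contacts was not tested.

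The division of the hub's PETs among the gene anchors differed between the pools. The start anchor had 15 PETs with the hub in shBORIS and 30 in shLUC, over a span of 69.9 kb (scaled ratio 0.448, 0.224 to 0.859). Its p was 0.0106, and it did not pass over the 3951 pairs tested (Fisher's exact test, adjusted p = 0.618). The anchor at 56088483-56090490, inside the gene, had 26 PETs with the hub in shBORIS and 16 in shLUC, over 81.4 kb (ratio 1.46, interval 0.752 to 2.91, adjusted p = 0.985 by Fisher's exact test). The start anchor thus had more hub PETs than the inner anchor in shLUC and fewer in shBORIS. Divided by each other, the ratios of these contacts gave 0.308 (interval 0.116 to 0.806, p = 0.0101 by Fisher's exact test). For 56069486-56071237 the hub PETs were 8 in shBORIS and 1 in shLUC, and for 56073110-56075074 they were 2 and 7. The remaining gene anchors had 2 and 2, and 1 and 0. An exact test over all 6 gene anchors found unequal shares of hub PETs in the pools (Freeman-Halton exact test, p = 0.00205). Both comparisons among hub contacts were chosen after the values were seen. They treat PETs as independent, and the spread between libraries is unknown.

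**Figure D3:**
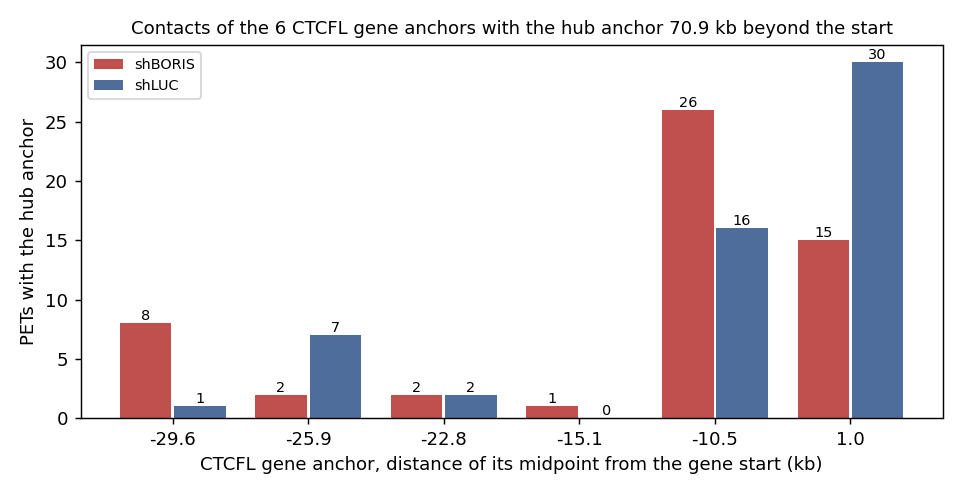
PETs between the hub anchor and each of the 6 CTCFL gene anchors (vertical axis), ordered by distance from the gene start in kb, with shBORIS left of shLUC at each. The start anchor (1.0 kb) has 15 in shBORIS and 30 in shLUC, and the anchor at -10.5 kb has 26 and 16.

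The gene's contacts pointed in different directions from its ends. Within 2 Mb, the anchor at 56088483-56090490 had 33 PETs towards the hub side and 0 towards the gene end in shBORIS, and 23 and 2 in shLUC. The start anchor had 27 towards the hub side and 10 the other way in shBORIS, and 45 and 11 in shLUC. The anchor nearest the gene end was the only gene anchor with 18 PETs away from the hub in each pool, beside 12 towards it in shBORIS and 5 in shLUC. Its pair with 55955794-55957957, 113 kb away past the gene end, had 8 of these in shBORIS and 16 in shLUC (ratio 0.448, interval 0.166 to 1.11, adjusted p = 0.825 by Fisher's exact test). Contacts between gene anchors numbered 14 in shBORIS and 14 in shLUC. Those on the gene end side within 2 Mb had 26 and 31 PETs, and those beyond the start other than the hub 19 and 22. Beyond 2 Mb there were 5 in shBORIS and 15 in shLUC (ratio 0.299, interval 0.0850 to 0.865, adjusted p = 0.0697 by Fisher's exact test over 5 classes of contact). No pair among these had more than a single PET in either pool. They made up 4.24% of the gene's intrachromosomal PETs in shBORIS and 10.9% in shLUC. Of all intrachromosomal PETs, 11.4% in shBORIS and 12.9% in shLUC spanned over 2 Mb.

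The gene's other pairs had at most 9 PETs over both pools. The start anchor had 5 PETs in shBORIS and 4 in shLUC with 56157596-56158828, and 3 and 3 with the inner anchor at 56088483-56090490. A pair with at least 3 PETs was called an interaction where its Bayes probability, the authors' score, reached 0.9. By that rule 9 of the gene's 78 intrachromosomal pairs were called in shBORIS and 9 in shLUC, of which 5 were called in both. The hub had 9 called interactions in shBORIS and 6 in shLUC, 5 of them in both. Over the whole tables, 48% of the 13111 shBORIS calls and 56% of the 11236 shLUC calls were called in both, so the gene's overlap was near that of all calls.

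Beyond the hub, the contacts of the window ran far, to anchors outside it. The hub's strongest distant partner was 56783748-56786294, across 614 kb, with 25 PETs in shBORIS and 20 in shLUC (ratio 1.12, 0.597 to 2.13). Its contact with 56753390-56755728 had 10 and 7. A separate anchor at 56227588-56230916 had 15 PETs with 56660751-56663627 in shBORIS and 5 in shLUC, across 433 kb (ratio 2.69, interval 0.929 to 9.46, adjusted p = 0.825 by Fisher's exact test). Within 2 Mb the hub had 60 PETs on the CTCFL side and 61 on the other in shBORIS, and 61 and 46 in shLUC. In RefSeq's gene order, PCK1, a gluconeogenic enzyme, ZBP1, a sensor of Z-form nucleic acids, and PMEPA1, an inhibitor of TGF-beta signalling, follow the start of CTCFL. Without gene positions of hg19, no anchor was assigned to them.

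On the other side of CTCFL lay a second group of contacts. The strongest joined 55663801-55666042, outside the window, to 55920367-55923017 across 257 kb, with 20 PETs in shBORIS and 23 in shLUC (ratio 0.779, 0.406 to 1.48). The neighbouring anchor at 55666112-55668471 contacted 55920367-55923017 with 6 PETs in shBORIS and 9 in shLUC, and 55818405-55820843 with 4 and 8. The pair of 55818405-55820843 and 55920367-55923017 had 14 in shBORIS and 6 in shLUC (ratio 2.09, interval 0.755 to 6.64, adjusted p = 0.962 by Fisher's exact test). The number of PETs up to 2 Mb long that passed over a gap between neighbouring anchors had a median of 83 in shBORIS and 82 in shLUC over 57 gaps. It was lowest at 55927281-55955793, with 11 in shBORIS and 19 in shLUC. From there to the start of CTCFL it stayed below the median in both pools. Beyond the hub it was highest in sum at 56324575-56347472 and at the next gap, 56348156-56357136, each with 162 in shBORIS and 132 in shLUC. RBM38, an RNA-binding protein, RAE1, a factor of messenger RNA export, SPO11, which makes the DNA breaks of meiosis, and BMP7, a secreted growth factor, are the next genes on this side in RefSeq's order.

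**Figure D4:**
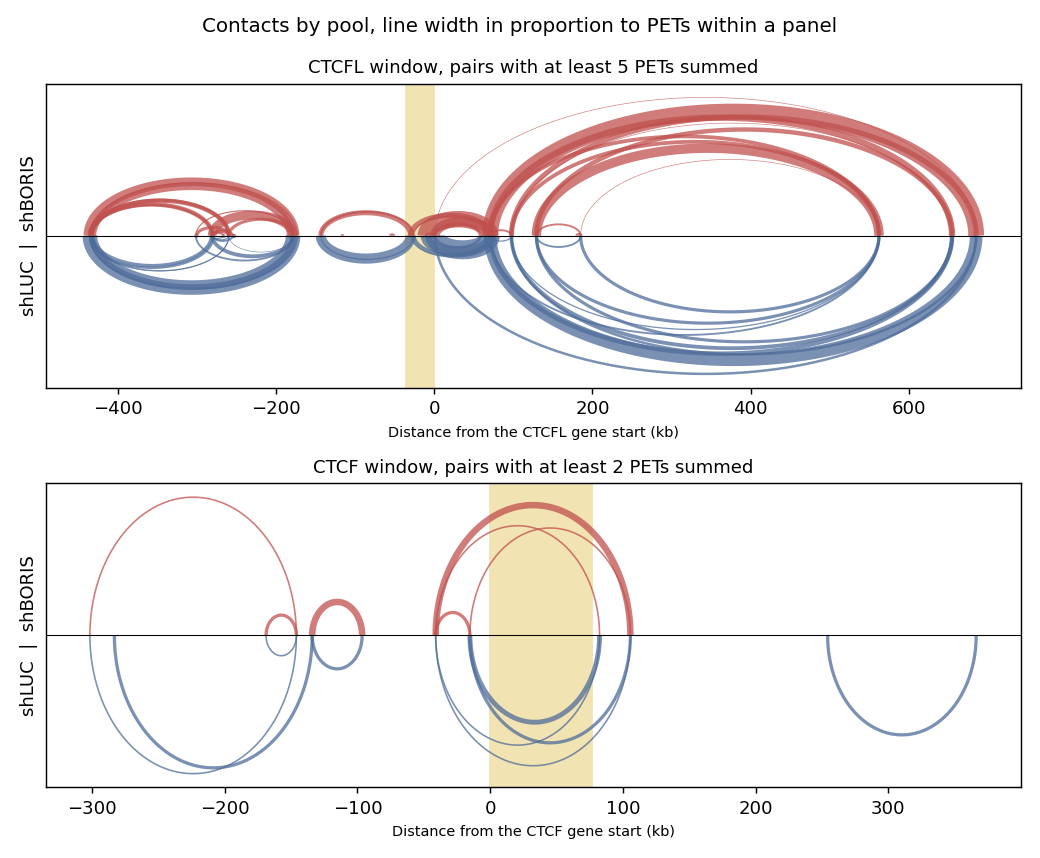
Pairs of each window drawn as arcs between their anchors, by distance from the gene start in kb, with shBORIS above and shLUC below the line, arc height following span and line width following PETs within a panel, for pairs up to 2 Mb with at least 5 (CTCFL) or 2 (CTCF) PETs over both pools. The gene interval is joined to the hub and the hub to the anchor 614 kb away in both pools, and no arc of the CTCF panel has more than 4 PETs.

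**Figure D5:**
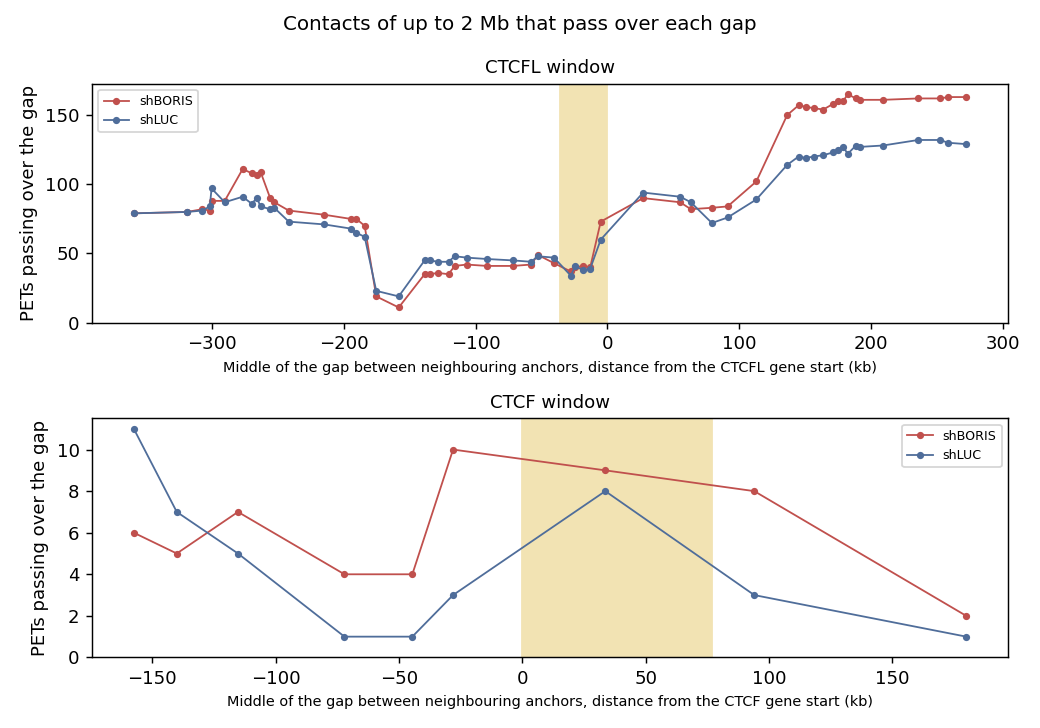
Number of PETs up to 2 Mb long that pass over each gap between neighbouring anchors (vertical axis), against the middle of the gap in kb from the gene start, for shBORIS and shLUC. The CTCFL panel has its low point, 11 PETs in shBORIS and 19 in shLUC, at -158 kb, and the CTCF panel stays at or under 11 PETs.

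Over all members, no single pair or anchor passed the tests. Of 459 intrachromosomal pairs in the CTCFL window, 335 had a single PET over both tables, and 14 had the 10 PETs needed for a test. Of the 14, 0 were called by Fisher's exact test, with the smallest adjusted p at 0.618, and 1 stood under 0.05 before adjustment. Over all 3951 pairs, 0.0506% were called and 5.69% stood under 0.05 before adjustment. A test with an assumed negative binomial dispersion of 0.1 called 0 of all 3951 pairs, so its 0 among the 14 adds no information. In the CTCF window 0 of 36 pairs had enough PETs. Of the anchors, 35 around CTCFL and 5 around CTCF were tested and 0 passed Fisher's exact test, against 0.0204% of all anchors. Unadjusted, 3 of the 35 and 1 of the 5 had a p under 0.05, against 6.43% of all anchors. Of the 35, 18 had a scaled ratio above 1 and 17 below, with a median of 1.02, and the median over all tested anchors was 1.01. For interchromosomal PETs, 0 of 51 anchors around CTCFL and 0 of 10 around CTCF passed, against 0.014% of all. The lowest adjusted p-values by Fisher's exact test were 0.836 and 0.971. Unadjusted, 1 of the 51 and 0 of the 10 had a p under 0.05, against 5.56% of all.

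The 3 anchors around CTCFL with an unadjusted p under 0.05 were the start anchor and 2 beyond the gap that the fewest PETs crossed, named after their values were seen. At 55837980-55843095 there were 40 PETs in shBORIS and 16 in shLUC (ratio 2.24, interval 1.23 to 4.29, adjusted p = 0.490 by Fisher's exact test), and 7 called interactions against 0. The pairs of this anchor called in shBORIS had from 0 to 2 PETs in shLUC, under the 3 needed for a call. Over the whole tables, 48% of the shBORIS calls were also called in shLUC. The interchromosomal PETs of this anchor numbered 50 in shBORIS and 57 in shLUC. At 55772841-55774377 there were 4 and 14 (ratio 0.256, interval 0.0614 to 0.815, adjusted p = 0.611 by Fisher's exact test). Squared deviations between the pools were 1.25 times those of counting error over all tested anchors. Spread between libraries and differences between the groups cannot be told apart in this value. Unadjusted p-values from counting error alone may therefore be too small.

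Of the CTCFL window's pairs, 42 were called in shBORIS and 33 in shLUC, and 19 were called in both. That is 45.2% of the shBORIS calls and 57.6% of the shLUC calls, near the 48% and 56% of the whole tables. By span, 13.7% of the window's PETs in shBORIS and 12.4% in shLUC were under 20 kb, against 19.9% and 18.4% of all intrachromosomal PETs. Spans of 500 kb to 2 Mb took 16.6% and 15.1%, against 6.37% and 6.68% of all. Of the span classes, 0 passed a test between the pools in either window (Fisher's exact test, smallest adjusted p = 0.592 over 10 tests, smallest unadjusted p = 0.0592).

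No listed contact ended on the CTCF gene, and a few passed over it. PETs up to 2 Mb long from one side of the gene to the other numbered 9 in shBORIS and 8 in shLUC, over 8 pairs (scaled ratio 1.01, interval 0.345 to 3.004, p = 1 by Fisher's exact test). The flanking anchor before the start, at 67580503-67581625, had 3 intrachromosomal PETs in shBORIS and 5 in shLUC. The one after the gene end, at 67678284-67679242, had 1 and 5. Their contact with each other had 0 PETs in shBORIS and 3 in shLUC, which is at the floor of 3 counts and gives no fold. The contact over the gene with the most PETs joined 67554579-67555996 to 67701426-67702543 across 147 kb, with 4 PETs in shBORIS and 1 in shLUC. All 5 tested anchors of this window had ratios above 1, where the median over all tested anchors was 1.01 and chromosome 16 stood at 1.10. Some of the 5 share pairs, so they are not separate observations, and both flanking anchors, too sparse for a test, had fewer PETs in shBORIS. The highest ratio was at 67554579-67555996, with 10 PETs in shBORIS and 2 in shLUC (ratio 4.48, 0.955 to 42.1, Fisher's exact test, p = 0.0420, adjusted p = 0.750). Called interactions numbered 2 in shBORIS and 1 in shLUC, with 0 in common, where 48% of all shBORIS calls and 56% of all shLUC calls were shared. Nothing is read from so few calls. The strongest pair of the window, 67461596-67462875 with 67499292-67500444, had 4 PETs in shBORIS and 2 in shLUC and does not touch the gene. Single pairs of this window had at most 6 PETs over both pools, too few for a test. In RefSeq's order CARMIL2, a regulator of actin capping, follows CTCF.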

How the data were processed

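Tools named in the submitters' processing notes are cutadapt 1.8 and Bowtie, with the hg19 build and no role or order. The program that scored interactions is not given in the sources used here. PET counts are whole numbers per the file headers and were used as deposited, without normalization. The authors' Bayes probability, a fraction from 0 to 1 per the file headers, was used for calls. Their hypergeometric p-value, named per the file headers, was not used. The deposited shBORIS table lacks a header line, so its columns were taken to be those named in the shLUC table. Since GEO lists 1 table under both libraries of a group, it was taken as their pool.

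Coordinates count from 1. Two-sided Fisher's exact tests set each pair or anchor with 10 or more PETs in both tables together against the other PETs, with Benjamini-Hochberg adjustment over the whole table. Ratio intervals are Clopper-Pearson, and those of ratios of ratios are conditional exact. These intervals, and the floor of 3 counts, reflect counting error alone. From the PET counts by themselves, any PCR copies left among them cannot be separated from independent ligations. Tiles have the length and phase of the window concerned.

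Members, windows and lists were chosen with earlier results of these data known. Regions were named by rule: all anchors on the genes or flanking them, the 10 pairs of each window and the 5 of the gene anchors with the most PETs; of those, pairs with few PETs are given by examples. Cohesin genes, planned as a list, were not analysed here without hg19 gene positions. Symbols and promoter windows are RefSeq's, from GRCh38.p14, and positions were not converted. Alternatives varied the scaling total, pairs counted, membership, count minimum, dispersion, call rule and span measure. The scripts were tested on simulated counts. Python 3.11.15, pandas 2.3.3, numpy 2.4.6, scipy 1.17.1 and matplotlib 3.10.9 were used.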

Additional observations from a re-analysis of the deposited data

How the results depend on the processing

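Of 89 alternatives over 24 results, 56 kept direction and side of the threshold or stayed within 1.5 times the count. Some of the 56 could not have done otherwise, so the tally is no measure of robustness. Taking all PETs as the total cancels in the ratio between the windows, and widening the CTCFL gene interval by 10 kb added no anchor. Looser sharing leaves the number called in each pool as it was. The CTCFL gene anchors (ratio 0.766) no longer passed with all PETs as the total (0.827), with pairs up to 2 Mb (0.810), with pairs of at least 2 PETs (0.824) or without the start anchor (0.970, chosen after seeing the data, as were the settings without the hub). They passed, unadjusted, with the PETs within chromosome 20 as the total (0.733), with pairs of at least 20 kb (0.759), without the hub (0.700) and with the start anchor alone (0.538). The CTCFL window, with a ratio of 0.974, turned to 1.05 with all PETs as the total, 1.02 with pairs of at least 2 PETs and 1.04 without the start anchor. With pairs of at least 2 PETs the CTCF window turned to 0.882 and the ratio between the windows to 1.15. The 100 to 500 kb class around CTCFL, at 1.05, turned to 0.970 measured between inner edges. These reversed ratios passed no test in either form, and the cause was not tested.

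Counts of calls followed the rule. Around CTCFL, at least 5 PETs gave 24 in shBORIS and 17 in shLUC, with 11 shared, 13 gained and 6 lost. Dropping the Bayes criterion and keeping at least 3 PETs left every count of both windows unchanged. At least 2 PETs with any Bayes probability, which changes both criteria at once, gave 73 and 65, with 36 shared, 37 gained and 29 lost. Sharing from a single PET upwards gave 48 shared, 6 gained and 2 lost. Around CTCF, at least 5 PETs gave 0 of each, at least 2 PETs with any Bayes probability gave 4 and 5 with 1 shared and 4 lost, and looser sharing gave 2 shared and 0 gained. Counts of pairs and anchors past the threshold were 0 under every alternative run. The ratio for anchors on the CTCF gene could not be computed, since there are none. No paired analysis was possible because the 2 libraries of a group are joined in its table, and none could be left out. Depth left 14 of 459 pairs around CTCFL and 0 of 36 around CTCF with enough PETs for a test.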
